A study of Homo sapiens with 20 samples.

Results

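Collagen genes were followed in tumors grown from 2 rhabdomyosarcoma cell lines. The members are the rows of the deposited table of normalized counts that are annotated as protein coding, whose gene name has the form COL, a number, A and a number, and that lie above 0 in at least 1 library. This gave 44 genes of the 44294 with a value above 0 and of the 57992 listed. All 44 passed the filter on low values in every comparison. RD and SJRH30 are established rhabdomyosarcoma lines, that is, tumor cells of the skeletal muscle lineage, and SJRH30 carries the PAX3-FOXO1 fusion while RD carries none. Cells labelled non-targeting control or TLE3 knockout were grafted into NOD/SCID mice, which lack functional T and B cells but keep macrophages, fibroblasts and vessels of their own. Each of the 4 groups (RD control, RD knockout, SJRH30 control and SJRH30 knockout) holds 5 libraries of poly(A) RNA from flash-frozen tumors. The labels name no guide, clone or age, and give no statement that each group's 5 tumors grew in separate mice, so p-values measure the spread between these libraries, which may be technical.

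Collagens are secreted or membrane-bound proteins in which 3 chains wind into a triple helix of repeated glycine triplets. Fibrillar types I, II, III, V and XI build the cables of connective tissue and cartilage, type IV forms the sheet of basement membranes, type VI forms beaded filaments around muscle fibers, and the FACIT group (fibril-associated collagens with interrupted triple helices, such as types IX and XII) decorates fibril surfaces. Transmembrane collagens such as types XIII, XVII and XXV stay in the cell membrane, and multiplexins, types XV and XVIII, sit in vessel and muscle basement membranes. In a tumor, fibroblasts usually make most of types I and III, while tumor cells can add types of their own. The 44 genes comprised 11 fibrillar, 10 FACIT, 6 basement membrane, 5 beaded-filament, 4 transmembrane and 3 hexagonal-network genes, 2 multiplexins, the anchoring-fibril gene COL7A1, and COL26A1 and COL28A1, which were placed in none of these classes.

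In 18 libraries the normalized counts summed to 26.1 M to 60.7 M. The others were shallow. RD knockout 5 rests on 9.65 M reads, each worth 4.93 units, and SJRH30 control 3 on 2.14 M reads, each worth 10.9 units, so that a count of 3 reads there stands at 32.7. SJRH30 control 3 was also low in markers of its line. Its 6 myogenic markers summed to 2418, against 36551 to 123872 in the other SJRH30 controls. Its 4 fusion targets summed to 6667, against 37180 to 107403 in those controls and 2230 to 4300 in RD controls. Of these targets TFAP2B read 4401, against 3264 to 5903 in the other SJRH30 controls and 14 to 118 in RD controls. FGFR4 read 403, against 27116 to 86201 and 1625 to 3823. Mitochondrial transcripts took 32.4% of RD knockout 5, 20.4% of SJRH30 control 3 and 16.9% of SJRH30 knockout 4, against 2.34% to 8.69% elsewhere. Values are from all libraries unless said otherwise, and counts of called genes are also given without those shallow ones where they differ. All 4 fusion targets were higher in SJRH30 than in RD in both line comparisons. TLE3, the targeted gene, was not called between control and knockout: it lay at 1270 to 2622 in RD controls and 424 to 1547 in RD knockouts (limma adjusted p = 0.61), and at 185 to 638 in SJRH30 controls and 582 to 967 in SJRH30 knockouts (0.56). The mRNA therefore gave no check of the knockout label, and every direction between control and knockout below rests on the labels.

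Several promoters are printed because their genes, among those with a promoter found, lay furthest below RD in SJRH30 controls (COL9A1, COL26A1, COL9A2, COL6A2), lay furthest above (COL11A2) or share a start region (COL4A1 and COL4A2). Each is the 250 bases before the RefSeq start in GRCh38.p14, read 5′ to 3′ on the gene's strand. Capitals mark 3 motifs on either strand. The GC box is GGGCGG, the TATA box is TATAAA, and the E-box, of the type MyoD binds, is CAGCTG.
COL9A1: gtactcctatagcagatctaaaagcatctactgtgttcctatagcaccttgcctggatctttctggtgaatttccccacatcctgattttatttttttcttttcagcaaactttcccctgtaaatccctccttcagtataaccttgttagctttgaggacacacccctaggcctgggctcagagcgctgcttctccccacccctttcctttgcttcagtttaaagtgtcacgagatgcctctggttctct
COL9A2: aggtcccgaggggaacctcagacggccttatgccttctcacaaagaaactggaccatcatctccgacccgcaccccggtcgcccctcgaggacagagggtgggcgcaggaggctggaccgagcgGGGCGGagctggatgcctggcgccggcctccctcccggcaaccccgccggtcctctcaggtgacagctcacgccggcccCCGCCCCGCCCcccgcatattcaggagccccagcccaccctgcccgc
COL26A1: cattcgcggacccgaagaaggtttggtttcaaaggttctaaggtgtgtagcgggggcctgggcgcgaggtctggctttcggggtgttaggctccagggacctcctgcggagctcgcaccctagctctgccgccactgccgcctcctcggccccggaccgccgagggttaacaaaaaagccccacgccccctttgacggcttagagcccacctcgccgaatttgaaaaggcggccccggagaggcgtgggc
COL6A2: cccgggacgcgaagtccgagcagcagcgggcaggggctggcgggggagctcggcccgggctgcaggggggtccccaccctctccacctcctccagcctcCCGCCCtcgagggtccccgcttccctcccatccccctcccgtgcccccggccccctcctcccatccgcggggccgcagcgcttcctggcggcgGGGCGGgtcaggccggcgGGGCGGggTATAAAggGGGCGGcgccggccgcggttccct
COL11A2: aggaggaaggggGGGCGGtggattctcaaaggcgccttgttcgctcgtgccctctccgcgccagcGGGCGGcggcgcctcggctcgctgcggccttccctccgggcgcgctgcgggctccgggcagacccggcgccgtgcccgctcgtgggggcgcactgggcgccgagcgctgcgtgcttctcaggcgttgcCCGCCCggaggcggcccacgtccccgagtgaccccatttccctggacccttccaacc
COL4A1-COL4A2: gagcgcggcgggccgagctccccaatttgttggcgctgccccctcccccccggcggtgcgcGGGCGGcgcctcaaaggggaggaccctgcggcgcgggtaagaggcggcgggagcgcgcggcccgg

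These windows are chr6:70303085-70303334 (COL9A1, minus strand), chr1:40317287-40317536 (COL9A2, minus), chr7:101362625-101362874 (COL26A1, plus), chr21:46097862-46098111 (COL6A2, plus) and chr6:33193138-33193387 (COL11A2, minus). COL4A1 and COL4A2, which encode the chains of the common basement membrane collagen, start head to head, and the sequence printed on the plus strand is the whole of the 126 bases between their starts, chr13:110307158-110307283. A promoter was found for 32 of the 44 genes. Where a gene had several starts, the one nearest to its GENCODE 29 start, read along its strand, was used. GGGCGG was in 18 of the 32 (56.2%), against 42.6% of 34788 distinct promoters. TATAAA was in 6 of 32 (18.8%, against 10.8%) and CAGCTG in 3 (9.38%, against 14.0%). CTTTGAT, the core read by TCF and LEF factors, and AACAATG, a core read by SOX factors, were in none of the 32, against 2.27% and 2.87% of all promoters. GGGCGG matches can overlap each other, as they do in COL9A2, and CAGCTG reads alike on both strands. The COL9A1 window held none of the 5 motifs and had a GC content of 45.6%, against 71.6% for COL9A2, whose chain joins it in type IX collagen.

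The 44 genes lie on 17 chromosomes, and 7 pairs are neighbours within 200000 bases. COL4A1 with COL4A2, COL4A4 with COL4A3 and COL4A6 with COL4A5 stand head to head, COL6A1 with COL6A2 and COL6A5 with COL6A6 follow each other on one strand, and COL3A1 with COL5A2 and COL19A1 with COL9A1 meet tail to tail. Exon bases of 12 members are shared with another annotated gene, and for 9 of them that gene lies on the opposite strand. The library kit is not stated to mark strand, so those reads cannot be told apart. The longest overlap is that of COL18A1 with SLC19A1, over 1401 bases or 16.4% of the exon bases of COL18A1.

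Fibrillar collagens led in both lines. Levels per kilobase of the longest coding transcript put COL3A1 first in RD controls at 12166 ± 5755 normalized counts per kb (mean ± SD, n = 5), followed by COL1A2 at 9314 ± 3149 and COL1A1 at 5305 ± 2365, the genes of type III and type I collagen. Each of the 3 was above the next in 5 of 5 libraries. COL6A2, a type VI chain, at 2267 ± 836 per kb and COL5A2, a type V chain, at 1936 ± 851 per kb came next, and their order held in 3 of 5 libraries. In SJRH30 controls the same leading genes stood at 4362 ± 1904 per kb for COL3A1, 3781 ± 1763 for COL1A2 and 2985 ± 1572 for COL1A1, and COL3A1 was above COL1A2 in only 3 of 5 libraries. COL5A2 at 1112 ± 251 per kb and COL4A2 at 1093 ± 870 per kb closed that list. In the libraries labelled knockout, COL26A1 came after these 3 in RD at 2260 ± 820 per kb and COL18A1, whose C-terminal fragment is endostatin, came after them in SJRH30 at 813 ± 212 per kb.

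All 44 genes together took 0.519% to 1.07% of the normalized counts in RD controls and 0.163% to 0.396% in SJRH30 controls, so these shares did not overlap. The summed collagen values themselves overlapped, at 140783 to 313088 in RD controls and 67955 to 150349 in SJRH30 controls. The totals they were divided by also differed, with medians of 29.6 M in RD controls and 41.6 M in SJRH30 controls. The 44 genes took 0.148% to 0.957% in RD knockouts and 0.0816% to 0.319% in SJRH30 knockouts, which overlapped. COL1A1, COL1A2 and COL3A1 made up 54.3% to 69.7% of the collagen sum in RD controls and 44.6% to 69.0% in SJRH30 controls. The 3 main type VI genes made up 6.53% to 9.69% in RD controls and 1.07% to 2.85% in SJRH30 controls, and the 3 type IX genes 1.77% to 3.71% and at most 0.362%. In bulk tumors, fewer cells of a type and less RNA per cell cannot be told apart.

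**Figure D1:**
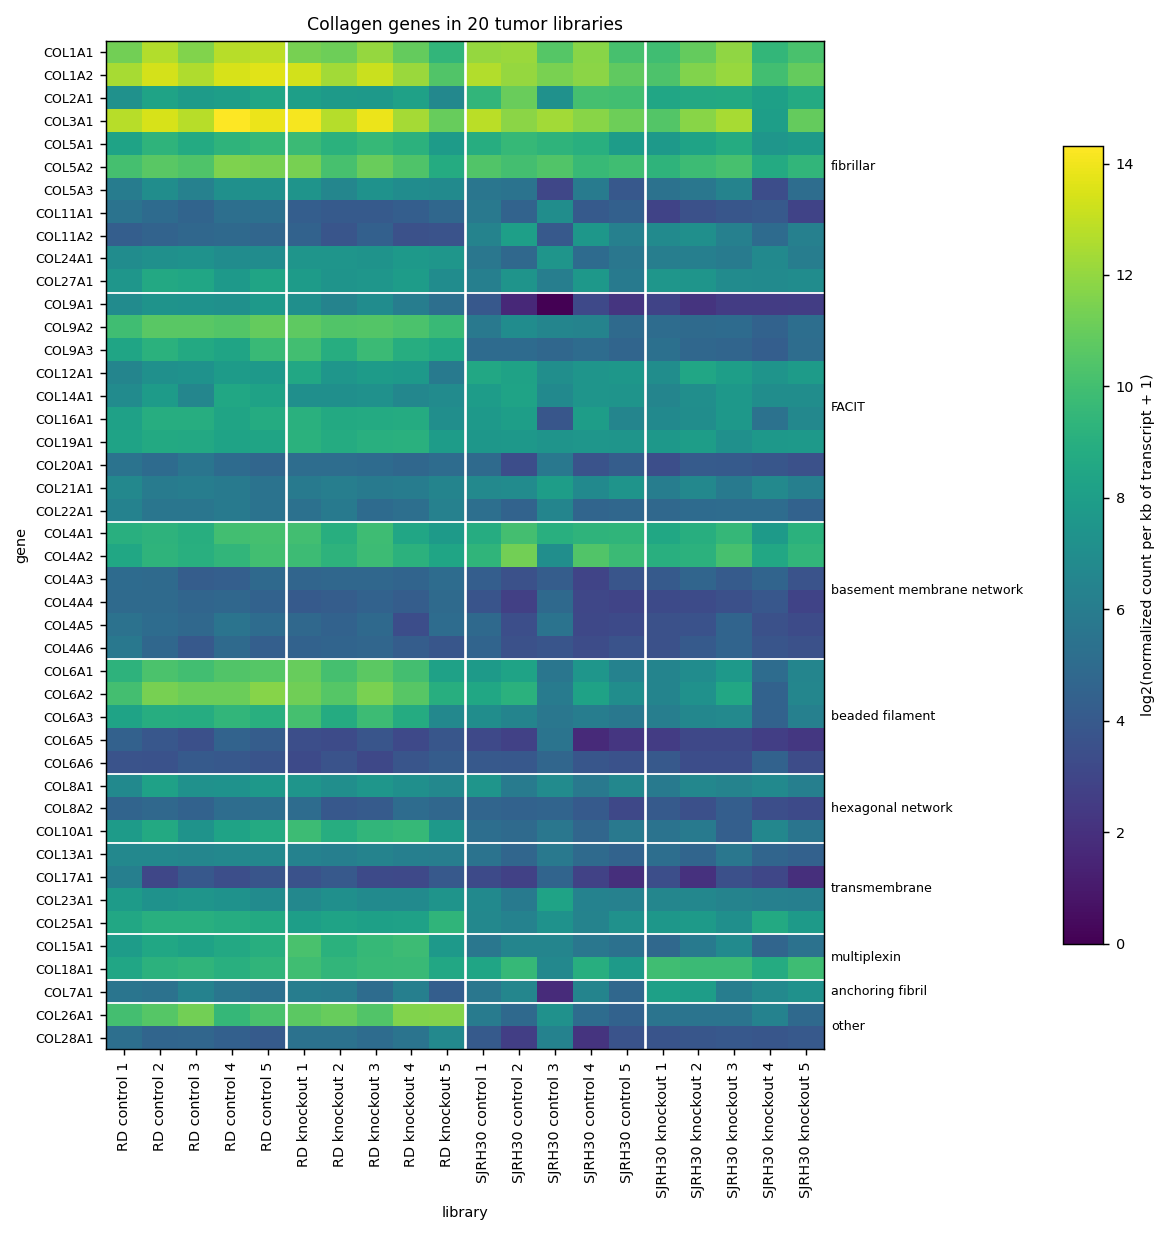
Levels of 44 collagen genes (rows, by structural class) in 20 tumor libraries (columns), as log2 of normalized count per kb of transcript plus 1. COL1A1, COL1A2 and COL3A1 are bright in every RD control, and the rows of COL9A2, COL9A3, COL26A1 and type VI darken from the RD to the SJRH30 columns.

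The comparison of SJRH30 with RD controls asks how the lines differ as tumors with TLE3 left in place. SJRH30 tumors held far less RNA of type IX, type VI, type X and type XXVI collagen and more of COL11A2, COL2A1 and COL21A1. Of the 44 genes, 3 were called higher and 18 lower (limma, Benjamini-Hochberg adjusted p below 0.05), 21 in all, against 18.7% of all 44294 genes tested, 6.23% higher and 12.5% lower. Without the shallow libraries 33 were called, 4 higher and 29 lower, against 40.4% of all genes, 18.1% higher and 22.4% lower. The median collagen lay 1.00 below 0 on the log2 scale of fold change, against -0.45 over all genes. Between the tumors labelled knockout, 1 collagen was called higher and 18 lower, against 8.01% and 8.94% of all genes, and without the shallow libraries 2 and 22, against 12.6% and 14.2%. The median collagen lay at -0.91 there, against -0.08 over all genes. The authors' deposited tables call 34 collagens in the controls, against 41% of their genes, and 24 in the knockouts, against 28.2%.

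The line comparisons use different tumors, since neither shares a library with the other, although the spread was estimated over all 20. 15 genes were lower in SJRH30 in both, which is 83.3% of each list of 18, and COL11A2 was higher in both. The matching share over all genes was not computed, so this recurrence is not shown to be particular to collagens. The 15 are COL4A4, COL5A3, COL6A1, COL6A2, COL6A3, COL9A1, COL9A2, COL9A3, COL10A1, COL13A1, COL15A1, COL16A1, COL19A1, COL24A1 and COL26A1. By class, the controls had 5 FACIT genes lower and 1 higher of 10, 3 fibrillar genes lower and 2 higher of 11, 3 of 5 beaded-filament, 2 of 6 basement membrane, 2 of 4 transmembrane, 1 of 3 hexagonal-network and 1 of 2 multiplexin genes lower. COL4A3, COL25A1 and COL27A1 were called lower in the controls and COL3A1, COL20A1 and COL28A1 in the knockouts. For none of these 6 did the difference between the comparisons pass the test over all 20 libraries, and COL25A1 alone among them passed it without the shallow libraries.

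The type IX genes, which encode a FACIT found on cartilage fibrils, were all lower in SJRH30. COL9A2 read 2809, 4606, 4659, 4021 and 5490 normalized counts in RD controls and 156, 352, 261, 239 and 85 in SJRH30 controls. In the knockouts it read 4991, 3946, 4139, 3546 and 2359 in RD and 91, 85, 88, 61 and 100 in SJRH30. No SJRH30 library came near an RD library: the log2 fold change was -4.42 ± 0.33 (SE, limma adjusted p = 2.5e-09) in controls and -5.44 ± 0.33 (1.4e-10) in knockouts. COL9A3 read 843, 1389, 1013, 816 and 2084 in RD controls and 77, 78, 65, 80 and 60 in SJRH30 controls, a log2 fold change of -3.99 ± 0.33 (adjusted p = 1.1e-08 by limma), and -4.44 ± 0.33 in knockouts. COL9A1 read 576, 772, 737, 697 and 1004 in RD controls and 68, 10, 0, 38 and 17 in SJRH30 controls. The 0 stands in SJRH30 control 3, where fewer than 3 reads cannot be told from none. Without the shallow libraries its log2 fold change was -4.79 ± 0.40 (limma adjusted p = 1.1e-09), and with them -5.74 ± 0.72. The chains are thought to join in equal numbers in the protein, yet per kb the RNA of COL9A1 stood at 0.0951 to 0.123 of COL9A2 in RD controls and COL9A3 at 0.233 to 0.435 of it.

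COL26A1, a short matrix collagen with an EMI domain, read 3188, 4525, 7321, 2209 and 3611 in RD controls and 184, 87, 447, 98 and 65 in SJRH30 controls. It read 5012, 6230, 4126, 9279 and 9619 in RD knockouts and 134, 136, 133, 244 and 86 in SJRH30 knockouts. Its log2 fold change was -4.82 ± 0.44 (limma adjusted p = 4.9e-08) in controls and -5.54 ± 0.44 (5.8e-09) in knockouts, and the lines did not overlap. COL10A1, the collagen of hypertrophic cartilage, read 808, 1471, 567, 1121 and 1491 in RD controls against 121, 103, 174, 90 and 190 in SJRH30 controls, a log2 fold change of -2.97 ± 0.43 (adjusted p = 2.3e-05 by limma), and -3.55 ± 0.43 in knockouts.

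Type VI collagen, whose chains are mutated in congenital muscular dystrophies, was lower in SJRH30 in all of its 3 main chains. COL6A1 read 2619, 5099, 4242, 5717 and 6262 in RD controls and 945, 1342, 207, 782 and 345 in SJRH30 controls, with a log2 fold change of -2.96 ± 0.54. COL6A2 read 3600, 9220, 7469, 7457 and 11490 against 1268, 1918, 207, 1056 and 443, with a log2 fold change of -3.29 ± 0.64. COL6A3 read 3442, 5183, 5007, 7255 and 5685 against 1381, 938, 545, 696 and 554, with a log2 fold change of -2.74 ± 0.51. The control groups did not overlap for any of the 3, and the limma adjusted p-values were 0.00041, 0.00076 and 0.00048. In RD knockouts COL6A1 read 8462, 4526, 7111, 4502 and 1249, COL6A2 read 8293, 5208, 9503, 5370 and 1727, and COL6A3 read 11917, 4782, 9453, 4853 and 1081. In SJRH30 knockouts COL6A1 read 366, 522, 898, 138 and 379, COL6A2 read 301, 516, 1343, 76 and 321, and COL6A3 read 738, 1065, 1115, 237 and 813. The lowest value of each RD row is RD knockout 5 and of each SJRH30 row SJRH30 knockout 4. COL6A5 and COL6A6, the minor chains, were not called in either comparison with all libraries, and COL6A5 was lower in SJRH30 controls without the shallow ones (-1.83 ± 0.37).

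COL15A1, a multiplexin of muscle and vessel basement membranes, read 1301 to 2756 in RD controls (median 2046) and 218 to 490 in SJRH30 controls (median 280), and its log2 fold change was -2.54 ± 0.44 in controls and -3.79 ± 0.44 in knockouts (limma adjusted p = 0.00024 and 1.4e-06). COL13A1, a transmembrane collagen of the neuromuscular junction, was nearly alike in the RD controls at 319, 318, 305, 323 and 324 and lay at 72 to 174 in SJRH30 controls, a log2 fold change of -1.57 ± 0.30 (adjusted p = 0.00073 by limma). COL25A1, a transmembrane collagen needed for motor innervation of muscle in mice, read 3014 to 4208 in RD controls and 647 to 1275 in SJRH30 controls (-2.04 ± 0.32, limma adjusted p = 7.1e-05). In the knockouts its log2 fold change between lines was -0.58 ± 0.32 and was not called. Without the shallow libraries COL6A1, COL6A2, COL6A3, COL9A1, COL9A2, COL9A3, COL10A1, COL15A1 and COL26A1 were all called lower in both comparisons, with log2 fold changes from -2.58 (COL6A1) to -5.24 (COL26A1) in controls and from -3.35 (COL6A3) to -5.60 (COL9A2) in knockouts.

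COL11A2, a cartilage fibrillar chain, went the other way. It read 116, 144, 173, 181 and 163 in RD controls and 545, 1730, 98, 1220 and 473 in SJRH30 controls, and 137, 82, 128, 69 and 74 against 737, 880, 482, 200 and 476 in the knockouts. SJRH30 control 3 alone among the SJRH30 libraries overlapped with RD. The log2 fold change was 1.85 ± 0.54 in controls (limma adjusted p = 0.020), 2.48 ± 0.39 without the shallow libraries and 2.38 ± 0.54 in knockouts (0.0033). COL2A1, the main collagen of cartilage, read 759, 1625, 1167, 1327 and 1820 in RD controls and 3471, 10511, 752, 5499 and 5089 in SJRH30 controls, so that only SJRH30 control 3 overlapped. Its log2 fold change was 1.56 ± 0.48 (limma adjusted p = 0.025), and 2.14 ± 0.28 (2.1e-06) without the shallow libraries. Both control calls were lost when only the 10 control libraries were fitted, and leaving out 1 library in turn kept COL11A2 in 7 of 10 fits and COL2A1 in 5 of 10. COL21A1, a FACIT, read 439, 269, 290, 245 and 185 against 465, 524, 1089, 476 and 732 and was higher in SJRH30 controls by 1.18 ± 0.30 on the log2 scale (limma adjusted p = 0.0084), with no overlap.

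**Figure D2:**
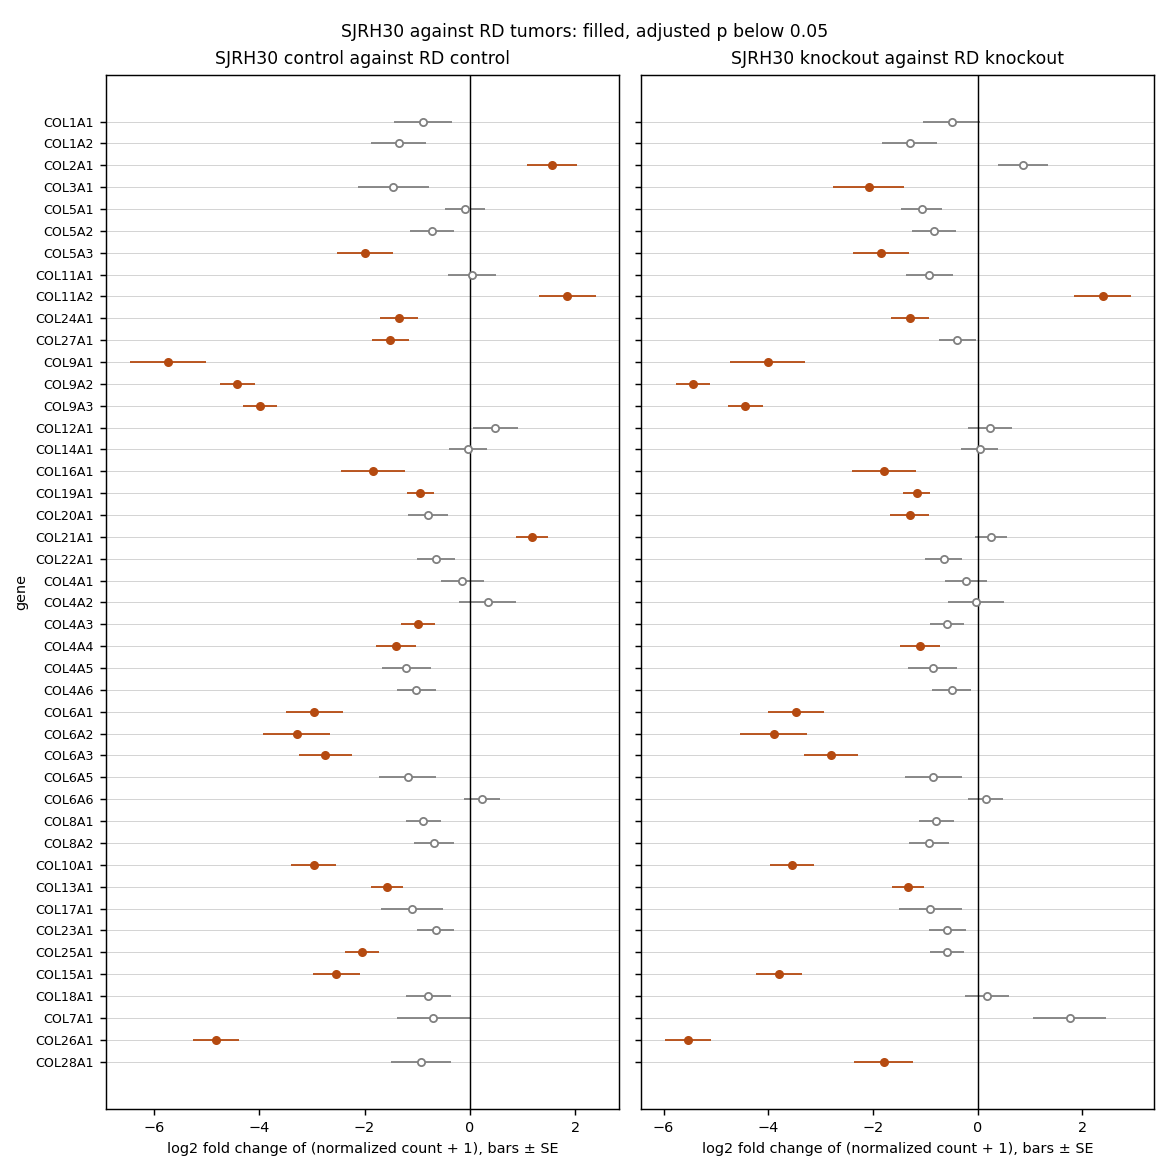
Log2 fold change ± SE of SJRH30 over RD for 44 collagen genes in controls (left) and in tumors labelled knockout (right), filled where the adjusted p is below 0.05. The points of COL9A1, COL9A2, COL9A3 and COL26A1 lie between -5.74 and -3.99 on both sides, and that of COL11A2 lies above 0 at 1.85 and 2.38.

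**Figure D3:**
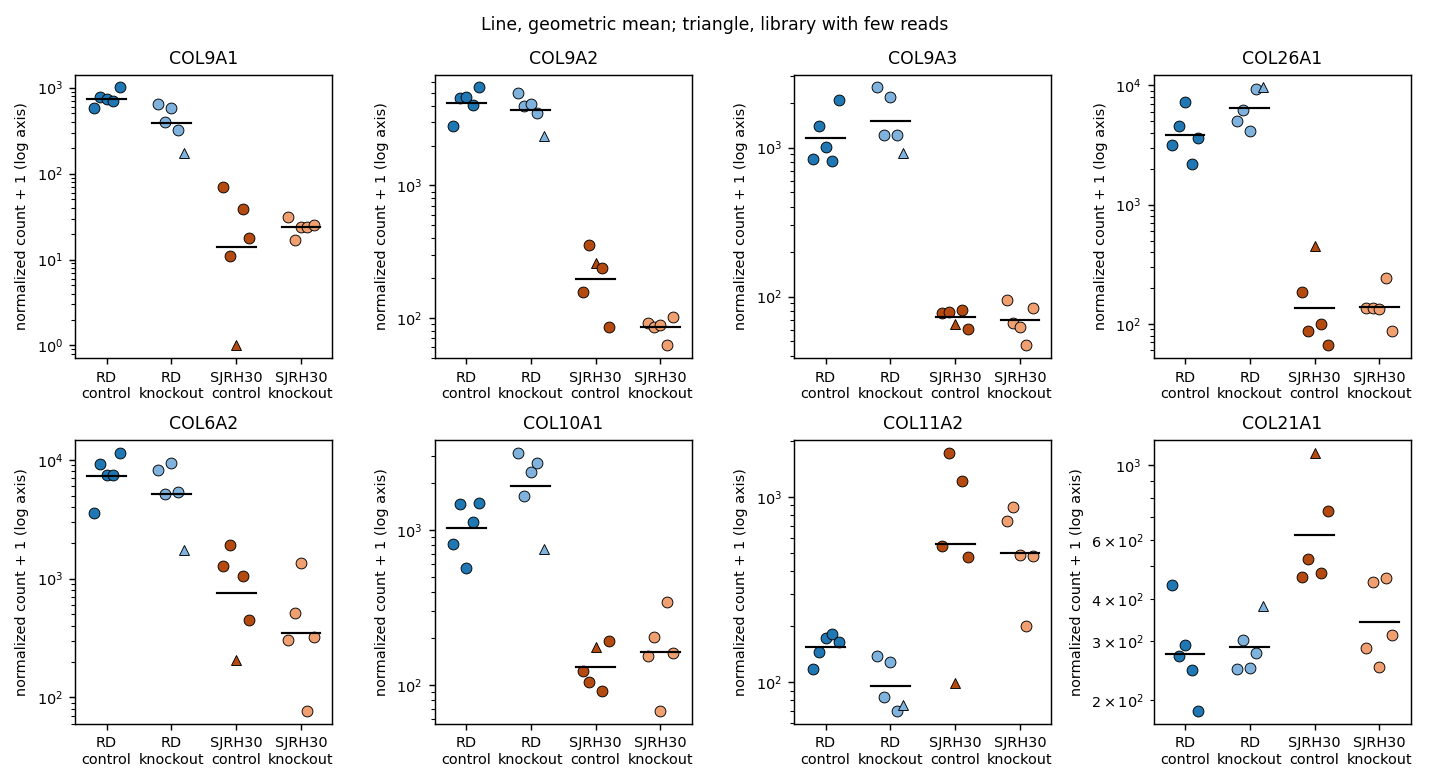
Normalized count plus 1 (log axis) of 8 collagens in each of 20 libraries, grouped by line and label. Points are libraries, triangles are RD knockout 5 and SJRH30 control 3, and black lines are geometric means. COL9A2 sits at 2359 or above in every RD library and at 352 or below in every SJRH30 library.

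COL1A1, COL1A2, COL3A1, COL4A1 and COL4A2 were not called between the controls with all libraries. COL1A1 read 16299, 43332, 20999, 46315 and 51480 in RD controls and 28564, 30797, 10175, 23144 and 7722 in SJRH30 controls, and the groups overlapped (log2 fold change -0.89 ± 0.54, limma adjusted p = 0.26). COL1A2 read 30336, 58862, 34336, 59382 and 69068 against 34951, 23029, 14805, 19772 and 9738, and its fold change of -1.36 ± 0.53 passed only without the shallow libraries (-1.27 ± 0.42, limma adjusted p = 0.019). COL3A1 read 38714, 61695, 38444, 112544 and 85788 against 40282, 20090, 28346, 19339 and 12835, with a log2 fold change of -1.46 ± 0.67 in controls (limma adjusted p = 0.14) and -2.09 ± 0.67 in knockouts (0.035). SJRH30 control 1 was the only one of its group to reach the RD range of COL1A2 and COL3A1.

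COL4A1 read 3414, 4080, 3299, 6553 and 7210 in RD controls and 3065, 7027, 3399, 4246 and 4286 in SJRH30 controls, a log2 fold change of -0.14 ± 0.41. COL4A2 read 2345, 4164, 3319, 4385 and 6570 against 4280, 15771, 882, 8988 and 5557, and was higher in SJRH30 only without the shallow libraries, by 0.96 ± 0.35 on the log2 scale (limma adjusted p = 0.033). Although the genes share the short start region printed above, COL4A2 stood at 0.682 to 1.04 of COL4A1 per kb in RD controls and at 0.264 to 2.29 of it in SJRH30 controls, where the lowest ratio was that of SJRH30 control 3. COL4A2-AS1, on the opposite strand, overlaps 81 exon bases of COL4A2.

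Markers of other cells moved with some of these genes. The 16 fibroblast and pericyte markers, which include no collagen, summed to 12543 to 30030 in RD controls and 7558 to 12484 in SJRH30 controls, without overlap, and to 4900 to 29519 in RD knockouts and 3461 to 11103 in SJRH30 knockouts. In the controls 8 of the 16 were called lower in SJRH30, against 12.5% of all genes, among them DCN (decorin), TCF21 and PDGFRB. TCF21 was very low throughout, at 3 to 16 in RD controls and 0 to 5 in SJRH30 controls. In the knockouts 6 were lower, against 8.94%, and PDGFRA was higher. Without the shallow libraries 8 were lower, against 22.4% of all genes, and ACTA2 higher in the controls, and 9 were lower, against 14.2% of all genes, and PDGFRA higher in the knockouts. The sources used here mention no removal of mouse reads. The part of these markers in the lower fibrillar and type VI levels was not tested. In RD knockout 5, a shallow library with a fibroblast sum of 4900, COL9A2 read 2359, the lowest of the RD libraries. COL26A1 read 9619 there, the highest of them. The highest SJRH30 values of these genes were 352 and 447. This describes 1 library, and the part of the fibroblast markers in COL9A2 and COL26A1 was not tested either. Of 6 chondrocyte markers, ACAN (aggrecan) was called lower in SJRH30 controls, with 396 to 834 in RD controls and 27 to 98 in SJRH30 controls, and without the shallow libraries MATN3 and HAPLN1 were lower too. Between the knockouts ACAN was lower and SOX9, a transcription factor of cartilage, was higher in SJRH30, and without the shallow libraries MATN3 was also lower. The part of these markers in the cartilage collagens was not tested.

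Within each line, the log2 level of each collagen was set against the log2 fibroblast sum over its 10 libraries, which made 88 relations with p-values from 100000 permutations adjusted over all of them. COL3A1 followed the sum in both lines, with Pearson r = 0.99 and Spearman rho = 0.98 in RD and r = 0.90 and rho = 0.99 in SJRH30. The adjusted permutation p was 0.00044 for each of these, from a raw 1e-05, the smallest that 100000 permutations can give. Without the 2 libraries farthest from the median sum, r was 0.99 and 0.93. COL1A2 gave r = 0.95 and rho = 0.83 in RD and r = 0.91 and rho = 0.88 in SJRH30 (adjusted permutation p = 0.0038 and 0.044, and 0.0039 and 0.024), and r was 0.88 and 0.76 without those 2 libraries. COL5A2 gave r = 0.98 and rho = 0.88 in RD and r = 0.94 and rho = 0.93 in SJRH30 (0.0013 and 0.024, and 0.0014 and 0.0088), and 0.93 and 0.88 without them.

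In RD, 13 of 44 relations passed by Pearson's r and 6 of these by both measures. In SJRH30, 6 passed by r and 3 by both. The relation was computed for collagens only, so whether these counts exceed the share over all genes was not tested. COL6A3 gave r = 0.92 and rho = 0.85 in RD and r = 0.62 and rho = 0.53 in SJRH30 (adjusted permutation p = 0.0045 and 0.037, and 0.14 and 0.25). Without the shallow library of each line, r was 0.76 for COL6A1, 0.65 for COL6A2 and 0.79 for COL6A3 in RD, and 0.84, 0.89 and 0.73 in SJRH30. Left out in the same way, r was 0.99 and 0.89 for COL3A1, 0.89 and 0.94 for COL1A2, and -0.68 and -0.23 for COL26A1 in RD and SJRH30. Whether the lines differ in these relations was not tested. COL26A1 went the other way in RD, at r = -0.76 and rho = -0.79 (adjusted permutation p = 0.048 and 0.060), and r was -0.57 without the 2 farthest libraries. In SJRH30 it gave r = 0.067. COL9A2 gave r = 0.75 and rho = 0.55 in RD and r = 0.57 and rho = 0.55 in SJRH30, and none of these passed. Libraries of a line also share depth and RNA quality, and control and knockout tumors were pooled for these values.

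**Figure D4:**
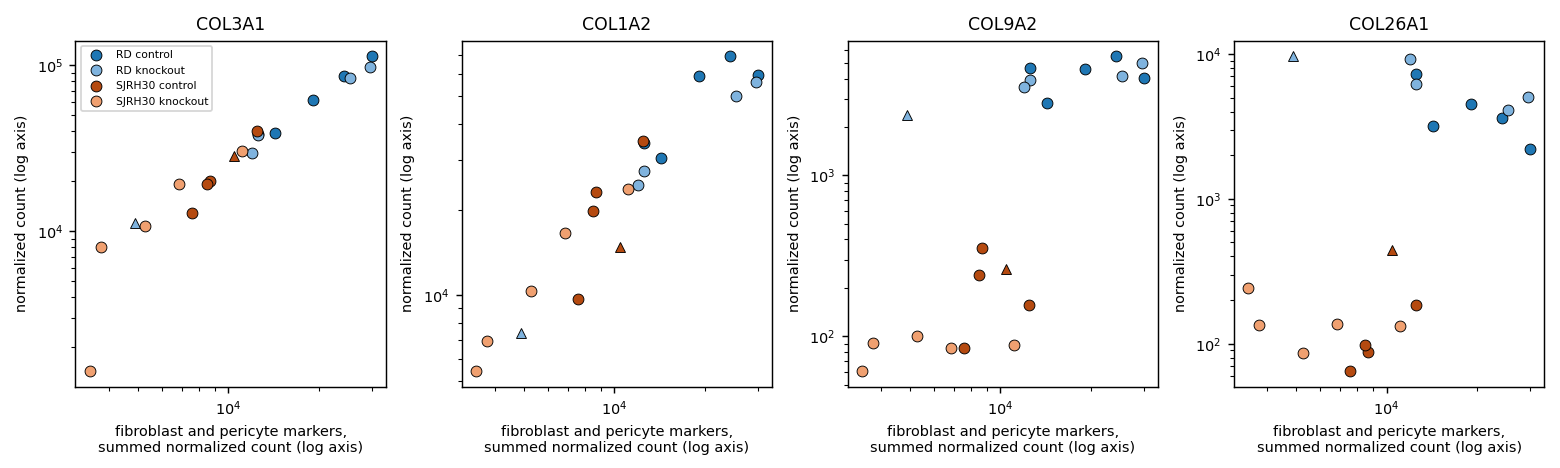
Normalized counts of COL3A1, COL1A2, COL9A2 and COL26A1 against the summed normalized counts of 16 fibroblast and pericyte markers (log axes), 1 point per library, triangles for RD knockout 5 and SJRH30 control 3. COL3A1 runs along the sum over all groups, from 1442 to 112544, while COL9A2 and COL26A1 fall into a high RD set and a low SJRH30 set.

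The study's own comparison, TLE3 knockout against control, moved no collagen past the threshold with all libraries. In RD, 0 of 44 were called by limma, against 0.142% of 42917 genes tested. Without RD knockout 5, again 0 were called, against 0.332% of all genes. The authors' deposited table also calls 0 of 44 in RD at an adjusted p below 0.05, against 0.494% of its genes. The median collagen log2 fold change was -0.25, against -0.09 over all genes. COL11A1, a minor fibrillar chain, had the smallest p: it read 309, 229, 169, 270 and 277 in RD controls and 132, 113, 113, 137 and 197 in RD knockouts (log2 fold change -0.85 ± 0.27, limma adjusted p = 0.36). The groups overlapped only through RD control 3 and RD knockout 5. COL9A1 at -0.96 ± 0.32, COL28A1 at 1.00 ± 0.35 and COL1A1 at -1.25 ± 0.46 came next, and none passed (0.41, 0.43 and 0.47).

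COL10A1 and COL15A1 were those nearest to a change in RD once RD knockout 5 was left out. COL15A1 read 1301, 2046, 1673, 2192 and 2756 in RD controls and 6569, 3120, 4147, 4991 and 1120 in RD knockouts, so that 4 of 5 knockouts lay above every control. Its log2 fold change was 0.83 ± 0.39 with all libraries (limma adjusted p = 0.60) and 1.23 ± 0.26 without the shallow one (0.065). Among the fits without it, COL15A1 passed when the remaining libraries were also rescaled by their median ratio, at 1.14 ± 0.21 (0.034). It also passed when RD knockout 2 was left out as well, at 1.41 ± 0.26 (0.0497). Both belong to a larger set of fits without RD knockout 5 that was added after the data were seen. COL10A1 read 3156, 1666, 2380, 2719 and 750 in RD knockouts, and its fold change was 0.90 ± 0.38 (limma adjusted p = 0.55) and 1.24 ± 0.29 (0.11). COL25A1 read 3014, 4208, 4205, 3693 and 3252 in RD controls and 2051, 2495, 2285, 2299 and 5286 in RD knockouts. The first 4 knockouts lay below every control and RD knockout 5 above all of them, and the fold change was -0.43 ± 0.26 with it and -0.68 ± 0.18 without it (limma adjusted p = 0.66 and 0.18).

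Of the abundant chains in RD knockouts, COL1A1 read 18139, 15029, 28039, 13346 and 4575, COL1A2 read 56385, 27373, 49970, 24448 and 7373, and COL3A1 read 97354, 37961, 83247, 29366 and 11168. COL4A1 read 6537, 3275, 6246, 2380 and 1485 and COL4A2 read 5919, 4002, 5728, 3854 and 2201. These overlapped with the controls for every gene, with RD knockouts 1 and 3 the highest and RD knockout 5 the lowest. The fibroblast sum was 29519 and 25396 in RD knockouts 1 and 3 and 4900 in RD knockout 5, and its part was not tested. Macrophage markers summed to 5109 to 9200 in RD controls and 2966 to 4387 in RD knockouts, without overlap, and 1 of 12, C1QB, was called lower, against 0.142% of all genes in either direction. Without RD knockout 5, CD14, C1QA, C1QB and TYROBP were lower, 4 of 12, against 0.332% of all genes.

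In SJRH30, 0 of 44 collagens were called with all libraries, against 0.00999% of 40028 genes. Without SJRH30 control 3, 1 was called, against 0.486% of all genes. The authors' deposited table calls 6 of 44 at an adjusted p below 0.05, against 6.59% of its genes: COL7A1, COL24A1 and COL25A1 higher, against 3.01%, and COL2A1, COL9A2 and COL11A1 lower, against 3.58%. The median collagen log2 fold change was -0.28, against 0.17 over all genes.

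The 1 call was COL2A1. It read 3471, 10511, 752, 5499 and 5089 in SJRH30 controls and 1770, 2042, 2053, 1413 and 2202 in SJRH30 knockouts, so that the knockouts lay below every control but SJRH30 control 3. The log2 fold change was -1.01 ± 0.57 with all libraries (limma adjusted p = 0.67) and -1.59 ± 0.31 without that library (0.026). When 1 further library was left out, the call held in 3 of 9 fits, with adjusted p from 0.020 to 0.11. The authors' deposited table gives a log2 fold change of -1.71 and an adjusted p of 1.4e-05. COL11A1 read 396, 168, 926, 115 and 144 against 46, 80, 95, 111 and 46, without overlap, and its fold change of -1.82 ± 0.57 did not pass (limma adjusted p = 0.45, and 0.12 without SJRH30 control 3). COL9A2 at -1.22 ± 0.42 did not pass either (0.48).

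COL7A1, the anchoring fibril that ties skin basement membrane to the dermis, read 467, 879, 22, 794 and 242 in SJRH30 controls and 2617, 2340, 606, 997 and 1388 in SJRH30 knockouts. The value of 22 rests on 2 reads. The log2 fold change was 2.29 ± 0.86 (limma adjusted p = 0.51), and 1.39 ± 0.43 without SJRH30 control 3 (0.12). The authors' deposited table gives 1.42 and an adjusted p of 0.019. COL25A1 read 811, 647, 1275, 658 and 1219 against 1543, 1805, 1116, 3348 and 1803, so that SJRH30 knockout 3 alone overlapped, and its fold change was 1.02 ± 0.36 (limma adjusted p = 0.48). COL18A1 read 2277, 5127, 665, 3328 and 1475 against 6441, 5606, 5611, 2937 and 6171, a fold change of 1.32 ± 0.51 (limma adjusted p = 0.51). It shares exon bases with SLC19A1, which could not be told apart.

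Among abundant chains in SJRH30 knockouts COL1A1 read 6491, 13034, 26049, 4779 and 7820, COL1A2 read 6932, 16596, 23737, 5438 and 10343, and COL3A1 read 7967, 19312, 30538, 1442 and 10805. COL4A1 read 2428, 3349, 4829, 1490 and 3696, and COL4A2 read 3365, 3749, 7417, 2518 and 4483. Each overlapped with the controls, with SJRH30 knockout 3 the highest of its group and SJRH30 knockout 4 the lowest. The fibroblast sums of these were 11103 and 3461, the highest and the lowest of the group. SJRH30 libraries also differed in how their collagen levels ran with base composition over the 44 genes, whose transcripts hold 41.3% to 67.4% GC. Each library's deviation was taken from the mean of the other libraries of its group, without the shallow ones. The rank correlation of that deviation with GC ranged from -0.61 in SJRH30 control 5 to 0.67 in SJRH30 control 4, and from -0.28 to 0.25 in RD. This is a description over genes of 1 library each, and its part in the SJRH30 results was not tested. COL2A1, COL7A1 and COL18A1 hold 62.3%, 64.8% and 67.2% GC and COL25A1 holds 41.3%.

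The difference of the knockout effects, SJRH30 minus RD, passed for 0 of 44 collagens with all libraries, against 0.00903% of 44294 genes. Without the shallow libraries 1 passed, against 0.197% of all genes. This was COL25A1, with a difference of 1.83 ± 0.37 on the log2 scale (limma adjusted p = 0.039) and of 1.46 ± 0.45 with all libraries (0.60). Its values above show the deep RD knockouts below their controls and the SJRH30 knockouts mostly above theirs. When 1 further library was left out it passed in 3 of 18 fits, with adjusted p from 0.016 to 0.12. COL7A1 at 2.45 ± 0.99, COL27A1 at 1.12 ± 0.50 and COL9A2 at -1.02 ± 0.47 had the next smallest p with all libraries and did not pass (0.77, 0.81 and 0.82).

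**Figure D5:**
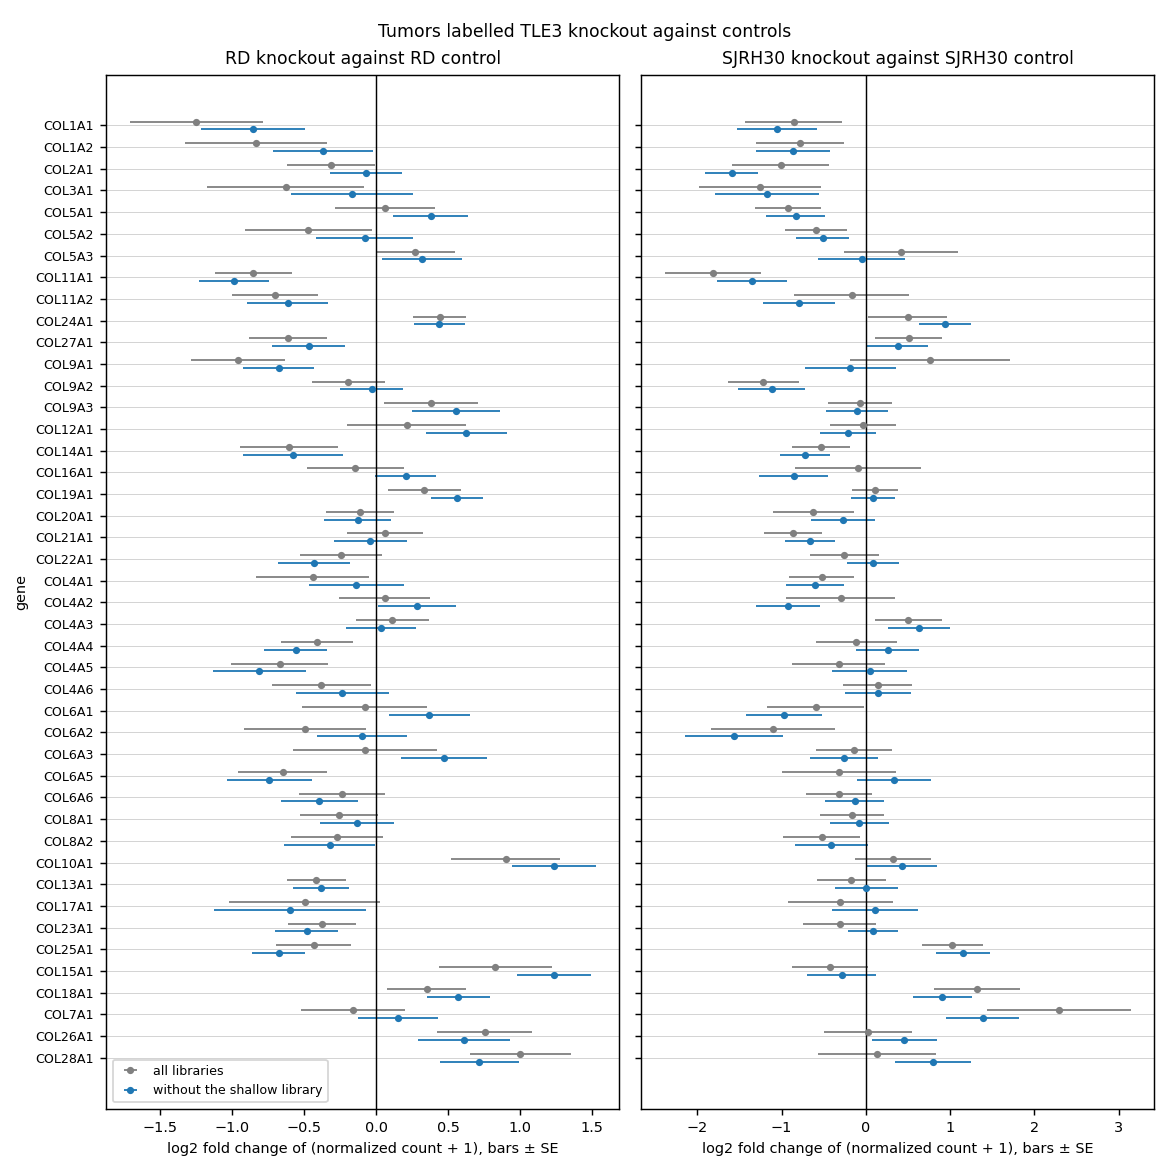
Log2 fold change ± SE of tumors labelled TLE3 knockout over controls for 44 collagen genes in RD (left) and SJRH30 (right), with all libraries (grey) and without the shallow library of that line (blue). COL2A1 in SJRH30 moves from -1.01 to -1.59 when SJRH30 control 3 is left out, and COL15A1 in RD from 0.83 to 1.23 without RD knockout 5.

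Genes that make, cut and read collagen were counted from 7 lists, to be read against the shares of all genes given above: 6.23% higher and 12.5% lower between the controls, 8.01% and 8.94% between the knockouts, and without the shallow libraries 18.1% and 22.4%, and 12.6% and 14.2%. Between the controls, 0 of 13 prolyl and lysyl hydroxylases and their helpers were called, and without the shallow libraries 5 were higher in SJRH30, among them P4HB and P4HA2, which hydroxylate prolines for a stable helix. Between the knockouts P4HA2 was higher by 1.88 ± 0.53 and P3H2 by 1.75 ± 0.27 on the log2 scale. Of 8 folding, glycosylation and secretion genes, COLGALT2, which adds galactose to hydroxylysine, was lower in SJRH30 at -2.42 ± 0.47 in controls and -2.48 ± 0.47 in knockouts, CREB3L1 was lower in the controls and MIA3, the export receptor for procollagen, was higher in the knockouts at 1.01 ± 0.30. Of 8 propeptide proteases, ADAMTS14 was higher (2.67 ± 0.59 in controls) and TLL2 lower (-2.02 ± 0.31) in SJRH30 in both comparisons. Of 5 cross-linking oxidases, LOXL4 was lower in both, with a log2 fold change of -4.65 ± 0.49 in controls. Between the knockouts LOXL2 was also lower (-1.38 ± 0.47) and LOX higher (1.63 ± 0.55), and the call on LOX was lost without the shallow libraries.

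Of 10 fibril assembly partners, 4 were lower in SJRH30 controls, among them DCN at -2.61 ± 0.58, FMOD (fibromodulin) at -2.34 ± 0.56 and TNXB at -2.04 ± 0.49, and in the knockouts 3 were lower and THBS1 was higher. DCN is also 1 of the 16 fibroblast markers. Of 14 degradation genes, MMP16, a membrane-type matrix metalloproteinase, was higher in SJRH30 at 1.54 ± 0.31 in controls and 3.86 ± 0.31 in knockouts. In the knockouts MMP3 (4.47 ± 0.55) and MMP13 (2.72 ± 0.90), a stromelysin and a collagenase, were higher as well. MMP13 was low, at 0 to 14 in RD knockouts and 8 to 81 in SJRH30 knockouts, and the 0 stands in RD knockout 5. In each comparison 4 were lower, among them TIMP4 at -4.10 ± 0.79, TIMP3 at -1.98 ± 0.41 and MRC2, the collagen uptake receptor, at -1.58 ± 0.37 in controls. TIMP4 was low too, at 9 to 72 in RD controls and 0 to 6 in SJRH30 controls. Of 10 receptors, DDR1 was higher at 2.28 ± 0.67 and the integrin chains ITGA10 (-2.73 ± 0.51) and ITGA1 (-1.02 ± 0.29) were lower in controls, and the same 3 were called in the knockouts. Knockout against control called 1 of these 68 genes with all libraries: MMP16 fell in RD, by a log2 fold change of -1.33 ± 0.22 (adjusted p = 0.033 by limma), against 0.142% of all genes. Without RD knockout 5, MMP3 (-2.44 ± 0.45) and THBS1 (-1.66 ± 0.27) were lower as well, 3 of 68, against 0.332% of all genes. In SJRH30, 0 of the 68 were called by limma with all libraries, and FMOD was lower (-2.05 ± 0.43) without SJRH30 control 3, 1 of 68, against 0.486% of all genes.

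In the skin-linked collagens, COL17A1, a hemidesmosome collagen of keratinocytes, read 405 in RD control 1 and 42 to 81 in the other RD controls. The 4 keratinocyte markers summed to 18649 in RD control 1 and to 424 to 854 in the other RD controls. COL17A1 was not called between the control groups with all libraries (-1.10 ± 0.59, limma adjusted p = 0.20). Without the shallow libraries it was lower in SJRH30 (-1.51 ± 0.54, 0.029). That fit still held RD control 1, and the SJRH30 controls in it read 16 to 47. The fold change without RD control 1 is not given here.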

How the data were processed

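RNA-seq libraries of 20 xenograft tumors were analysed, 5 in each of 4 groups taken from the labels. Per the submitters' processing notes, FastQC, fastp 0.20.1, STAR 2.7, GRCh38 patch 7, featureCounts and edgeR were used. The authors deposited normalized counts rounded to whole numbers, treated here as a score with no fixed range and not as raw counts. The authors' deposited comparison tables hold a fold ratio, a log2 fold change and p-values, raw and adjusted. From the normalized counts, log2(value + 1) was fitted with limma 3.58.1 in R 4.3.3, with a trended prior, over genes at 1 or more in at least 5 libraries. Adjusted p-values are Benjamini-Hochberg values over all genes tested, called below 0.05. Fold changes are on the log2(value + 1) scale, which can understate changes of low genes. A value of 0 in a shallow library can also overstate them. COL9A1 between the controls stood at -5.74 with all libraries and at -4.79 without the shallow ones. Knockout comparisons used the 10 libraries of a line, and line comparisons and the difference between lines used all 20. The fit was tested on simulated data.

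Genes were given in full by a rule: up to 8 called in each direction, or the 4 with the smallest p where fewer than 4 were called, plus the main chains of types I, III, IV and VI. COL13A1, COL10A1, COL15A1, COL17A1 and COL18A1 were also described where their values were seen to bear on a group. Members, gene lists and the alternative without the shallow libraries were chosen with earlier results of these data known. Lengths and overlaps came from GENCODE 29, matched by identifier without version. Alternatives were another pseudocount and filter, rescaled libraries, a replicate block, other sets of libraries and leaving out each library. Raw counts were not used here.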

Additional observations from a re-analysis of the deposited data

Results flagged for a closer look

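Within groups of 5, the library at one end stood apart from the other 4 for 10 of 176 gene and group combinations on the log2 scale, by the gap to its nearest neighbour. Chance flags about 1 in 20 groups. RD knockout 5, which rests on few reads, gave 4 of them: COL16A1 at 775 normalized counts against 2326 to 3127 in the other RD knockouts, COL19A1 at 1471 against 2804 to 3512, COL25A1 at 5286 against 2051 to 2495, and COL28A1 at 449 against 137 to 189. SJRH30 knockout 4, with the highest mitochondrial share of its group, gave 3: COL6A3 at 237 against 738 to 1115, COL18A1 at 2937 against 5606 to 6441, and COL24A1 at 753 against 414 to 487. COL4A5 read 154 in SJRH30 knockout 3 against 55 to 71, COL7A1 read 752 in RD control 3 against 373 to 439, and COL17A1 read 405 in RD control 1 against 42 to 81.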

How the results depend on the processing

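Without the shallow libraries, 1 collagen was called in SJRH30 knockouts, 33 between the controls and 1 for the difference between lines. Leaving out 1 library in turn gave 0 to 0 calls in RD knockouts, 0 to 1 in SJRH30 knockouts (1 without SJRH30 control 3), 18 to 30 between the controls, 14 to 20 between the knockouts and 0 to 0 for the difference. Under another pseudocount, a stricter or no filter, rescaled libraries and other sets of libraries in the fit, each count stayed within 1.5 times the one reported. No collagen called with all libraries changed direction under any alternative run. Among those not called, leaving out the shallow libraries changed the sign of 5 in RD knockouts, 9 in SJRH30 knockouts, 3 between the controls, 2 between the knockouts and 9 for the difference. COL7A1 moved from -0.69 to 0.21 between the controls and from -0.16 to 0.15 in RD knockouts. The causes were not tested. With 2.14 M reads in SJRH30 control 3, low collagens there are limited by depth.

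Same-numbered libraries deviated together, with a correlation above 0.1, in 7 of 30 pairs (-0.63 to 0.39), and a library correlated best with its own number in 4 of 30, so the numbers were not taken to pair libraries. With the number as a replicate block, 0 collagens were called in RD knockouts, 0 in SJRH30 knockouts, 19 between the controls, 17 between the knockouts and 0 for the difference. In alternatives chosen after seeing the data, the block without the shallow library called 3 collagens in SJRH30 knockouts (COL7A1 higher, COL2A1 and COL6A2 lower). Leaving out SJRH30 knockout 3 in addition to SJRH30 control 3 called COL2A1 and COL6A2 lower and COL7A1 and COL25A1 higher. The share of all genes called in the block fits and in these alternatives is not given here. Their counts are therefore not shown to be particular to collagens. In RD knockouts, COL11A1 passed in another such alternative, without RD knockout 5 and RD control 3 (-1.12 ± 0.23, limma adjusted p = 0.049). The groups overlapped only through those libraries, so leaving them out separated the groups and the pass gives no further support.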
